A study of Mus musculus with 2 samples.

Results

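The genes described here were grouped as granule matrix, histamine and serotonin genes of mast cells: Srgn, Ndst2, Cpa3, Serpinb1a, Hdc, Tph1 and Slc18a2. Not all of their products lie in the matrix, and Serpinb1a, for example, encodes a cytosolic inhibitor. They were chosen by gene symbol on the array (Srgn was also searched under its older symbol, Prg1). The 7 genes have 8 probes among the 35010 genes on the array, of which 20524 were measured on both arrays. All 7 genes and all 8 probes were measured, so no member was lost to the filter on dim probes. The cells were mast cells grown from the marrow of C57BL/6 mice. Marrow mononuclear cells were kept for 2 weeks with 10 ng/mL interleukin 3, and then for 2 weeks with both interleukin 3 and 10 ng/mL stem cell factor. One array carried RNA of cells given 200 pmol of an siRNA directed at GATA1, and the other carried RNA of cells given 200 pmol of a control siRNA. GATA1 is a DNA-binding regulator of erythroid cells, megakaryocytes, eosinophils and mast cells. The cells of both groups were of the same strain and grown in the same way, and the RNA of each array was a pool from 2 animals.

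This design has limits as a model. An siRNA lowers a transcript without deleting the gene, the labels do not say which stretch of Gata1 it targets or how long after transfection the cells were taken, and the cells were transfected in culture. Each group is 1 array, so no difference below has a replicate check, no test across arrays was made and no p-value is given. With only 2 arrays, their number sets how precise any value can be.

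Mast cells store their mediators in secretory granules. Serglycin, the protein made from Srgn, is the core to which sulfated glycosaminoglycan chains, heparin and chondroitin sulfate, are attached. The negatively charged chains hold positively charged proteases such as carboxypeptidase A3 and the amines histamine and serotonin. In mice, loss of the serglycin core or of Ndst2, which sulfates the nitrogen atoms of heparin, is known to deplete granules of several proteases and of histamine. Histamine is made from histidine by the product of Hdc, serotonin from tryptophan by a pathway that starts with the product of Tph1, and Slc18a2 encodes the vesicular monoamine transporter that loads amines into granules.

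Each probe is described by its signal, which is the brightness of its spot in scanner units after the scanner software's background correction, and by its level, which is the signal divided by the 75th percentile of all probes on the same array. That percentile was 340.0 on the GATA1 siRNA array and 303.2 on the control siRNA array. A difference is the log2 level on the GATA1 siRNA array minus that on the control siRNA array, so that 1 stands for 2-fold and a negative value means lower with GATA1 siRNA. The error given with a difference comes from the scanner software's error for the 2 spots and holds no spread between animals. For the probes of the granule genes, the software's error was 10% of the signal on both arrays. The error of a difference was therefore 0.20 for each of these probes. For them, lying within or beyond the scanner error is a fixed cut on the size of a difference, not an uncertainty measured for that probe. A probe counts as measured where both arrays showed it well above background and unsaturated, which held for 28736 of 55659 probes. The targeted gene was lower as labelled: Gata1 had a signal of 3930 on the GATA1 siRNA array and 16415 on the control siRNA array (log2 difference -2.23). Gata2, the other GATA factor of mast cells, had signals of 27499 with GATA1 siRNA and 25309 with control siRNA (log2 difference -0.05, and 0.02 with the authors' scaling).

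The largest differences of the 8 probes were those of the 2 Slc18a2 probes, and their sequences are shown because the probes overlap. They lie on chromosome 19 (mm9, plus strand), A_55_P2143946 at chr19:59370106-59370165 and A_55_P2000489 at chr19:59370153-59370212. The last 30 bases of the first probe (chr19:59370136-59370165) and the first 30 of the second (chr19:59370153-59370182) are shown 5′ to 3′, with the 13 bases that both probes hold in capitals.
A_55_P2143946, last 30 bases: gatcagcaaaggcatgcCTGTTACTGCTCT
A_55_P2000489, first 30 bases: CTGTTACTGCTCTccaaagaaaaaagaaaa
The remaining bases of the 60-base probes are not shared, so each spot read a largely separate stretch of the transcript.

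GATA factors bind short sites with GATA at their centre, and the promoters of 6 of the 7 genes were searched for them in RefSeq sequence (GRCm38.p6). A window runs from 250 bases before to 50 bases after an annotated start. The 4 hexamers searched, on both strands, were AGATAA or AGATAG or TGATAA or TGATAG. Of 8 windows of the 6 genes, 4 held at least 1, as did 9778 of 32851 windows of all genes (29.8%). Cpa3 held AGATAA 46 bases before its start, Hdc held TGATAG 221 bases before it and Tph1 held AGATAG 236 bases before the first of its 2 starts. Slc18a2 held TGATAG 115 bases before its start and TTATCT, which is AGATAA on the other strand, 230 bases before it. None of the 4 was found in the window of Ndst2, in either window of Srgn or in the second window of Tph1, and none of the matches overlapped another. A match is only a run of letters, and binding was not measured. The promoters of Cpa3, with the highest difference of the 7 genes, and of Slc18a2, with the lowest, are shown 5′ to 3′ on the strand of the gene, with the hexamers in capitals (Cpa3 at chr3:20242132-20242431, minus strand, and Slc18a2 at chr19:59260628-59260927, plus strand).
Cpa3: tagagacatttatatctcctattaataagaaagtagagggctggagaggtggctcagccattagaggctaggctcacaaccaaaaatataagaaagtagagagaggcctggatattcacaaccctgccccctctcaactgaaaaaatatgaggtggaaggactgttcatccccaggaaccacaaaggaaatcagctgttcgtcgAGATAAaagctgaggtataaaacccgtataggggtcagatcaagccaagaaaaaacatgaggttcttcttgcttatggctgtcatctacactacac
Slc18a2: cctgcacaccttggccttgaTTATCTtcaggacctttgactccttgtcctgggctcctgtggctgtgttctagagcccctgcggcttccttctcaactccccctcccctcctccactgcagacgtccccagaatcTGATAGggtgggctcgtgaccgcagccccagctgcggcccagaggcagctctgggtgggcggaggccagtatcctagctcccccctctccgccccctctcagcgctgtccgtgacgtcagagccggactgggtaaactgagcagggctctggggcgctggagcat

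**Figure D1:**
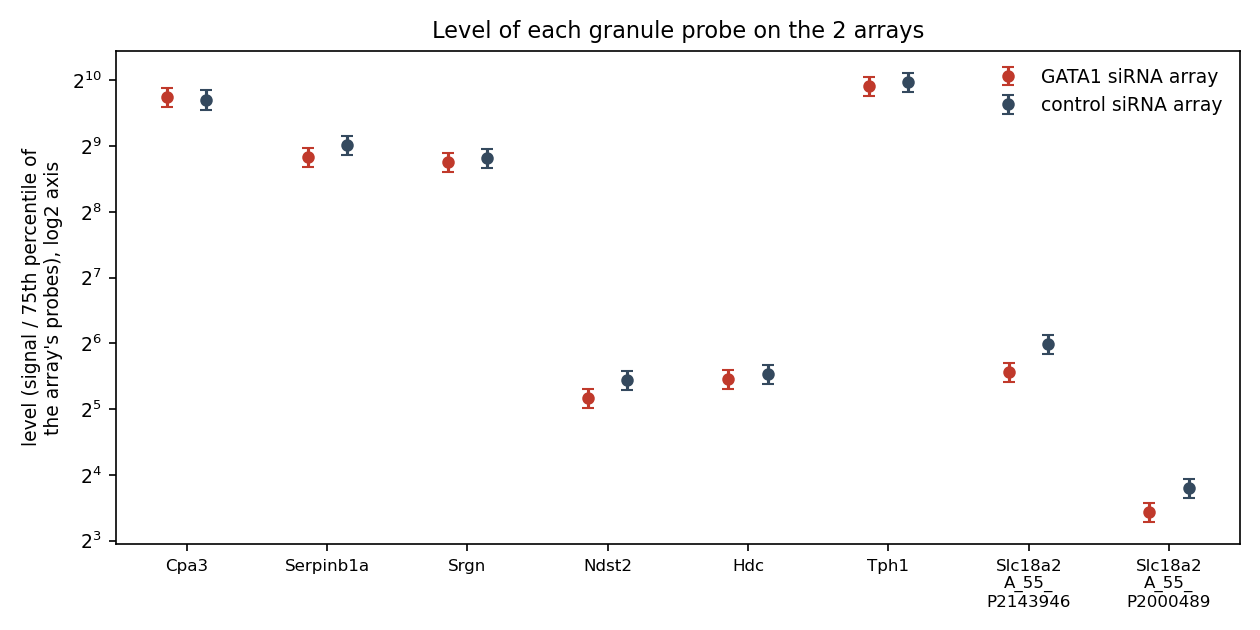
Level of each of the 8 probes (signal divided by the array's 75th percentile, log2 axis) on the GATA1 siRNA array (red, left) and the control siRNA array (dark, right), with bars for the scanner software's error of 10% of the signal. The points of a pair lie close together for every gene, with the widest gaps at the Slc18a2 probes (47.3 against 63.3, and 10.9 against 14.0).

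The transcript of the matrix core protein differed by less than the scanner error. Srgn was read by probe A_55_P2094925 (chr10:61957432-61957491, mm9, minus strand) with a signal of 147153 on the GATA1 siRNA array and 136638 on the control siRNA array. Its level was 433 with GATA1 siRNA and 451 with control siRNA, a log2 difference of -0.06 ± 0.20 (scanner error). The signal itself was higher on the GATA1 siRNA array and the level lower, since the 75th percentile was higher on that array, and with the authors' scaling the difference was 0.0027. No direction can be given for Srgn.

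Ndst2, the heparin N-deacetylase and N-sulfotransferase, stood lower with GATA1 siRNA by more than 1 scanner error. Probe A_51_P377390 (chr14:21543258-21543317, mm9, minus strand) had a signal of 12186 on the GATA1 siRNA array and 13177 on the control siRNA array. The level was 35.8 with GATA1 siRNA and 43.5 with control siRNA, which is 1.21-fold lower (log2 difference -0.28 ± 0.20, scanner error). It stayed below 0 under all 11 settings that gave a value, between -0.34 and -0.22. Among these settings, only normexp background correction, quantiles and loess could move a probe apart from the others. The remaining ones shifted all probes alike or left the value unchanged, here and for the genes below. Of all measured probes, 22.8% lay at least as far from 0 as Ndst2. Of the 995 measured probes within 0.5 of its mean log2 level, 9.85% did.

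The other genes of the heparin pathway were spread around 0. Of 33 listed genes for heparin and heparan sulfate synthesis and processing, 27 were measured, with 14 above 0 and 13 below. The median was 0.01, against 0.01 over all measured genes, and it turned negative with loess, quantiles, no filter on dim probes or a percentile over all spots. None reached 1.5-fold, a size reached by 4.6% of all measured genes. The widest were Hpse, the heparanase that cuts the chains (0.49), Hs3st1, a heparan sulfate 3-O-sulfotransferase (-0.49), and Xylt1, a xylosyltransferase that starts the chains (-0.45, and -0.23 after normexp). Hpse was dim, with signals of 25.0 on the GATA1 siRNA array and 15.8 on the control siRNA array, and its difference was 0.06 after normexp background correction. The other N-deacetylase/N-sulfotransferase genes, named after their values were seen, stood at 0.24 (Ndst1, 3 probes) and -0.22 (Ndst3), and Ndst4 was not well above background on either array.

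Of the chondroitin sulfate genes measured, 1 of 9 was beyond 1.5-fold, against 4.6% of all measured genes. Chst15, which adds a second sulfate group to make the highly sulfated chondroitin sulfate E of mast cells, had a signal of 290 on the GATA1 siRNA array and 394 on the control siRNA array, a log2 difference of -0.61 (2 probes, -0.67 and -0.54), and -0.46, short of 1.5-fold, after normexp. Chpf, a chondroitin polymerizing factor, stood at -0.39 (-0.23 after normexp) and Chst12, a chondroitin 4-O-sulfotransferase, at 0.30. Over the 9 measured of 14 listed genes, 4 lay above 0 and 5 below, with a median of -0.01 that was positive with the authors' scaling, the median of measured probes and normexp. The summed level of these genes was 39.1 with GATA1 siRNA and 41.0 with control siRNA.

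Cpa3 encodes carboxypeptidase A3, the exopeptidase of the mast cell granule. Probe A_51_P214127 (chr3:20115674-20115733, mm9, minus strand) gave signals of 291595 on the GATA1 siRNA array and 253539 on the control siRNA array. The level was 858 with GATA1 siRNA and 836 with control siRNA, 1.03-fold apart (± 0.20 on the log2 scale, scanner error). Cpa3 was the only one of the 7 genes above 0, and it stayed above 0 under all 11 settings that gave a value, between 0.01 and 0.14, which is within the scanner error throughout. No pixel of the spot was saturated on either array.

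The other carboxypeptidases were mostly close to 0, with 2 dim exceptions in opposite directions. Of 19 listed genes 11 were measured, 8 above 0 and 3 below, and the median was 0.06 (-0.02 after normexp). Cpe, carboxypeptidase E of neuroendocrine granules, had signals of 160 on the GATA1 siRNA array and 73.9 on the control siRNA array (0.95, with 0.88 and 1.02 at its 2 probes, and 0.59 without the filter on dim probes). Cpxm1, a relative without known enzyme activity, had 49.5 on the GATA1 siRNA array and 120 on the control siRNA array (-1.45), and its spot lies in an area where neighbouring spots differed as well. It was the only gene of this list past 2-fold, a size reached by 0.901% of all measured genes, and it stood at -0.88, short of 2-fold, after normexp. Cpb1, a pancreatic carboxypeptidase, stood at 0.33.

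The other proteases listed for the mast cell granule spread wider. Of 15 listed, 14 were measured, 6 above 0 and 8 below. Named after their values were seen, those above 0 were Ctsd, Ctsl, Ctsc, Gzmb, Mcpt8 and Prss34. Mcpt8 and Prss34 are on the basophil list too. Those below 0 were Tpsab1, Tpsg1, Tpsb2, Mcpt1, Mcpt2, Mcpt4, Cma1 and Ctsg. Of the 14, 5 were at least 1.5-fold lower with GATA1 siRNA, while 4.6% of all measured genes were 1.5-fold apart in either direction. Mcpt1, 1 of those 5, was dim, with signals of 17.7 on the GATA1 siRNA array and 25.3 on the control siRNA array. The tryptases Tpsab1 (-2.11) and Tpsg1 (-1.11) passed 2-fold, as did 0.901% of all measured genes in either direction. Tpsab1 had signals of 162 on the GATA1 siRNA array and 623 on the control siRNA array. The chymase Mcpt4 stood at -0.88. The summed level of the 14 measured genes was 1749 with GATA1 siRNA and 1982 with control siRNA. The median of -0.24 moved with the filter on dim probes, to -0.37 without it and -0.12 with a stricter one.

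Serpinb1a encodes a cytosolic inhibitor of elastase-like and chymase-like serine proteases. Its probe A_55_P2006008 (chr13:32934693-32934752, mm9, minus strand) gave almost the same signal on both arrays, 155479 with GATA1 siRNA and 157066 with control siRNA. Since the GATA1 siRNA array was the brighter one, the level was 457 with GATA1 siRNA and 518 with control siRNA, 1.13-fold lower (log2 difference -0.18 ± 0.20, scanner error). The difference was below 0 under all 11 settings, between -0.21 and -0.12, and within 1 scanner error under the scaling used here. Of all measured probes, 38.6% lay at least as far from 0 as Serpinb1a. Of the 200 measured probes within 0.5 of its mean log2 level, 6.5% did.

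Other clade B serpins lay on both sides of 0. Of 25 listed genes 10 were measured, 6 above 0 and 4 below, with a median of 0.23 that became -0.26 when dim probes were kept. The 3 widest were Serpinb6b (0.56), Serpinb6d (0.53) and Serpinb6c (0.30, with 0.29 and 0.31 at its 2 probes), all from the Serpinb6 group of protease inhibitors. Serpinb6b was dim, with signals of 84.2 on the GATA1 siRNA array and 50.8 on the control siRNA array, and its difference was 0.25 after normexp. The remaining measured Serpinb6 genes, named after their values were seen, stood at 0.28 (Serpinb6a) and 0.27 (Serpinb6e), and Serpinb1c, the nearest measured relative of Serpinb1a by name, stood at -0.14. None of the 10 reached 1.5-fold, a size reached by 4.6% of all measured genes. Sequence similarity between these genes is high, and cross-hybridisation between their probes was not tested.

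The transcripts of the enzymes that begin histamine and serotonin synthesis differed by less than the scanner error. Hdc, the histidine decarboxylase, was read by probe A_51_P254656 (chr2:126419516-126419575, mm9, minus strand) with signals of 15012 on the GATA1 siRNA array and 14067 on the control siRNA array. The level was 44.2 with GATA1 siRNA and 46.4 with control siRNA (log2 difference -0.07 ± 0.20, scanner error). Of the 8 nearest spots on the slide, 2 differed at least 4-fold between the arrays. The same held for 1.06% of all spots and for no other probe of the 7 genes. The brightness of the pixels within the Hdc spot varied by a CV of 0.119 on the GATA1 siRNA array and 0.123 on the control siRNA array, and whether the neighbouring spots bear on the Hdc value was not tested.

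Tph1, the tryptophan hydroxylase of peripheral tissues, was read by probe A_55_P2094262 (chr7:53902553-53902612, mm9, minus strand). Its signal was 326817 on the GATA1 siRNA array and 304237 on the control siRNA array. The level was 961 with GATA1 siRNA and 1004 with control siRNA (log2 difference -0.06 ± 0.20, scanner error, and 0.09 with quantile scaling), so that no direction can be given for Tph1.

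The transcript of the transporter that loads amines into the granule had the largest differences of the 8 probes. At probe A_55_P2143946, Slc18a2 had a signal of 16077 on the GATA1 siRNA array and 19197 on the control siRNA array. The level was 47.3 with GATA1 siRNA and 63.3 with control siRNA, 1.34-fold lower (log2 difference -0.42 ± 0.20, scanner error). At the overlapping probe A_55_P2000489 the signal was 3697 on the GATA1 siRNA array and 4234 on the control siRNA array. The level there was 10.9 with GATA1 siRNA and 14.0 with control siRNA, 1.28-fold lower (-0.36 ± 0.20, scanner error). The 2 values lay 0.06 apart, and their mean was -0.39, which is 1.31-fold lower. Slc18a2 was thus lower with GATA1 siRNA at both probes, before scaling too, where the GATA1 siRNA signal was 0.837 and 0.873 of the control siRNA signal. The values ranged between -0.48 and -0.36 at the first probe and between -0.42 and -0.30 at the second under all 11 settings. Under the scaling used here, the first probe lay 2.06 scanner errors from 0 and the second 1.77. Of all measured probes, 11.1% lay at least as far from 0 as the first probe and 14.9% as far as the second. Among measured probes within 0.5 of its mean log2 level, the share was 1.65% (of 787) for the first probe. It was 6.21% (of 1966) for the second. Shares found in this way were 41.1% (of 231) for Srgn, 70.4% (of only 54) for Cpa3, 65.5% (of 910) for Hdc and 64.5% (of only 31) for Tph1. In RNA of a whole culture, fewer cells of a type and less RNA per cell cannot be told apart.

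**Figure D2:**
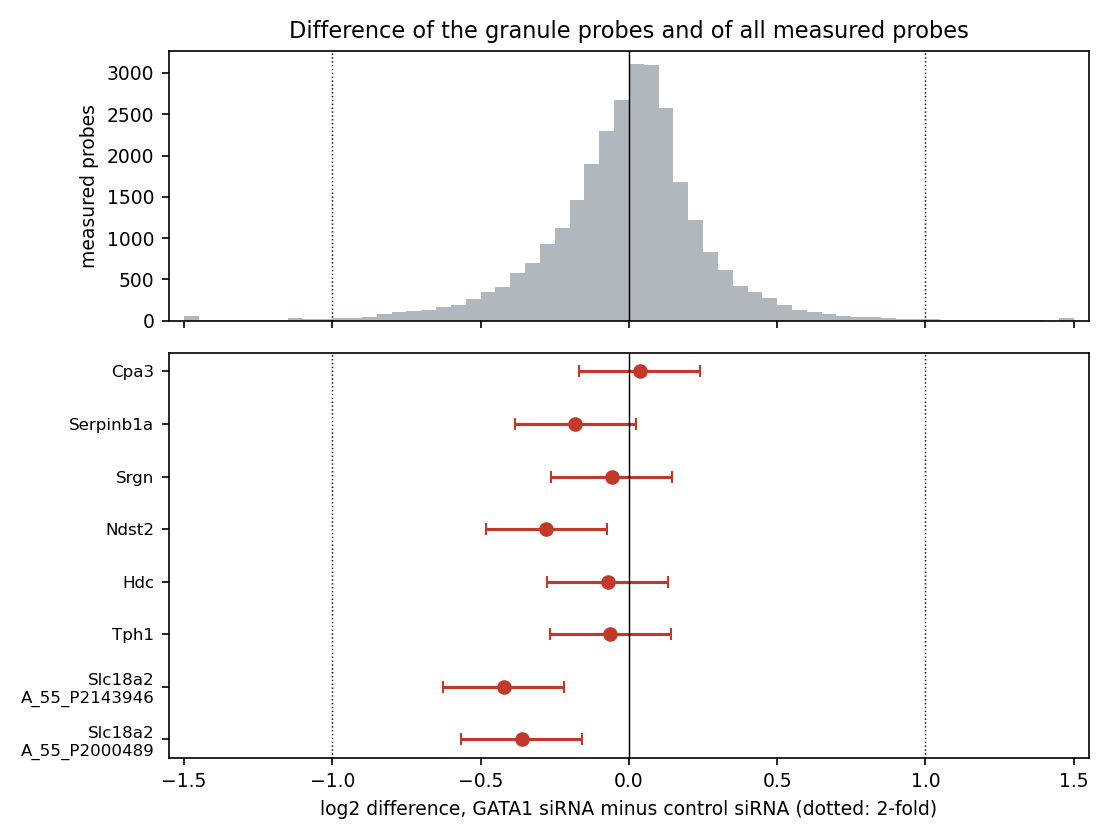
The upper panel counts all 28736 measured probes by log2 difference (GATA1 siRNA minus control siRNA), with probes beyond 1.5 gathered in the outermost bars. The lower panel shows the 8 probes on the same axis with bars of 1 scanner error (0.20). The bars of Ndst2 and of both Slc18a2 probes lie wholly below 0 and the other 5 cross it, and no probe comes near the dotted 2-fold lines.

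Other genes of amine synthesis, transport and breakdown were listed as well: 22 genes, of which 12 were measured, 4 above 0 and 8 below, with a median of -0.13. Maob, the monoamine oxidase that breaks down amines, had signals of 11657 on the GATA1 siRNA array and 19679 on the control siRNA array, 1.89-fold lower (log2 difference -0.92). It stayed between -0.98 and -0.86 under every setting tried. Ddc, the aromatic amino acid decarboxylase that completes serotonin synthesis after Tph1, was much dimmer, with signals of 186 on the GATA1 siRNA array and 303 on the control siRNA array (-0.87, with -0.96 and -0.78 at its 2 probes). Maob and Ddc were the only genes of the 12 past 1.5-fold, against 4.6% of all measured genes. Aanat, which acetylates serotonin, stood at -0.54, but its 2 probes gave -0.98 and -0.10.

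Among the remaining genes of this list, named after their values were seen, the subunits of a large neutral amino acid transporter stood at -0.37 (Slc7a5) and -0.30 (Slc3a2). Slc6a4, the serotonin transporter of the plasma membrane, stood at 0.37. Gch1, Pts, Spr, Pcbd1, Pcbd2 and Qdpr, which make or recycle the tetrahydrobiopterin that tryptophan hydroxylase needs, lay between -0.13 and 0.24. Several genes gave no difference. Tph2, Slc22a2, Hnmt, which methylates histamine, and Aoc1, which oxidises it, were well above background on neither array. Slc18a1, the other vesicular monoamine transporter, Slc29a4 and Maoa were above background on the GATA1 siRNA array only, and Slc22a3 on the control siRNA array only. Asmt has no probe under that name. The summed level of the 12 measured genes was 145 with GATA1 siRNA and 194 with control siRNA. Most of both sums came from Slc3a2 (70.8 with GATA1 siRNA and 87.1 with control siRNA) and Maob (34.3 and 64.9). Of the 12 genes, 4 were above 0.

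**Figure D3:**
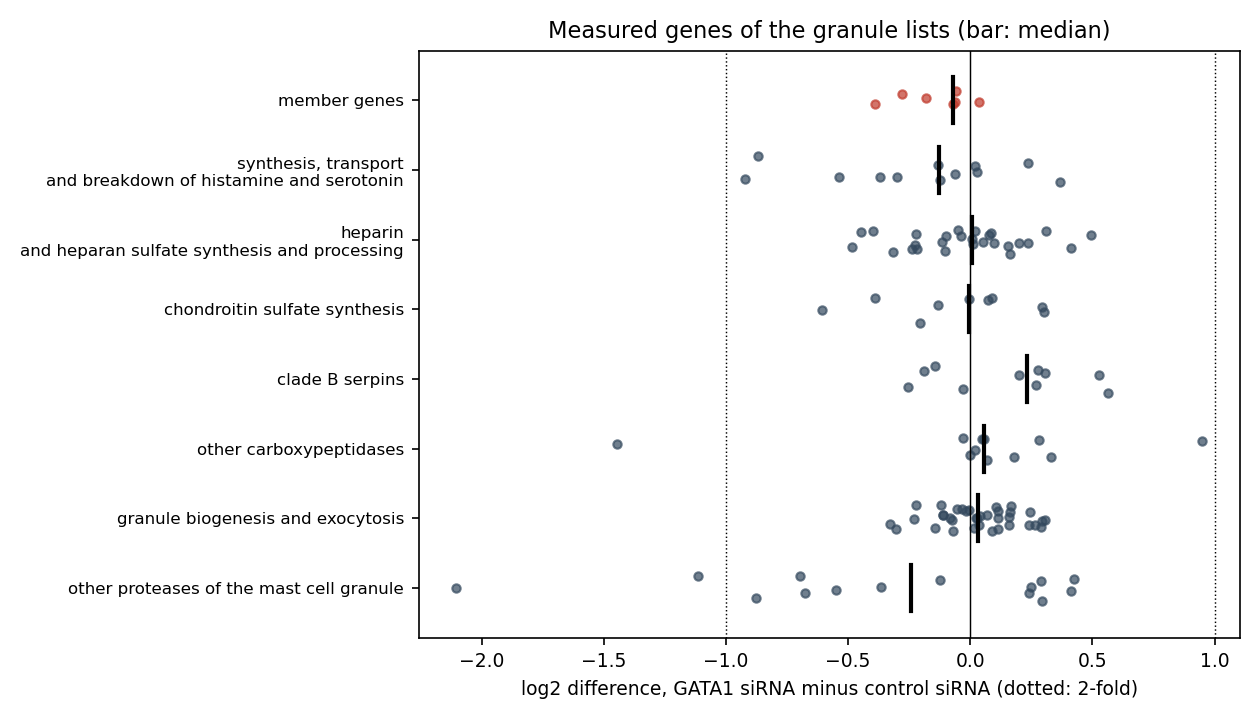
Each point is the log2 difference (GATA1 siRNA minus control siRNA) of 1 measured gene, by list, with a bar at the list's median and dotted lines at 2-fold. The 7 granule genes (red) lie between -0.39 and 0.04, the amine list reaches down to -0.92 (Maob) and the protease list to -2.11 (Tpsab1).

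Genes of the machinery that builds and releases granules lay on both sides of 0, and none of those measured was 1.5-fold apart (4.6% of all measured genes were). Of 40 listed genes for granule biogenesis and exocytosis, 36 were measured, 21 above 0 and 15 below, and the median was 0.03 (-0.01 with loess scaling). The widest were Unc13b, a vesicle priming factor (-0.33), Rab12, a small GTPase of membrane traffic (0.31), and Cplx2, a complexin that regulates fusion in mast cells. Cplx2 had signals of 34534 on the GATA1 siRNA array and 38033 on the control siRNA array, and its 4 probes lay between -0.32 and -0.29 (the gene stood at -0.14 without the filter on dim probes).

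Over the 7 granule genes, 6 lay below 0 and Cpa3 alone above, with Srgn above 0 with the authors' scaling and Tph1 with quantiles. Of all measured genes, 47.3% lay below 0. The median of the 7 genes was -0.07, against 0.01 over all measured genes, whose SD was 0.29. None of the 8 probes was 1.5-fold apart, a size reached by 5.11% of measured probes, and none 2-fold, which 0.95% reached. Of the 8 probes, 5 were within 1 scanner error of 0 and 3 beyond it, which is the same fixed cut of 0.20 for each. Among the 4493 measured probes at least as bright as the dimmest of the 8, the median difference was 0.06 and the SD 0.16. The median of the 7 genes was below 0 under every setting, at its lowest, -0.14, with quantiles and at its highest, -0.01, with the authors' scaling, which moved the median of all genes up by 0.06. With quantiles, and likewise with the authors' scaling, 5 of the 7 genes were below 0.

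**Figure D4:**
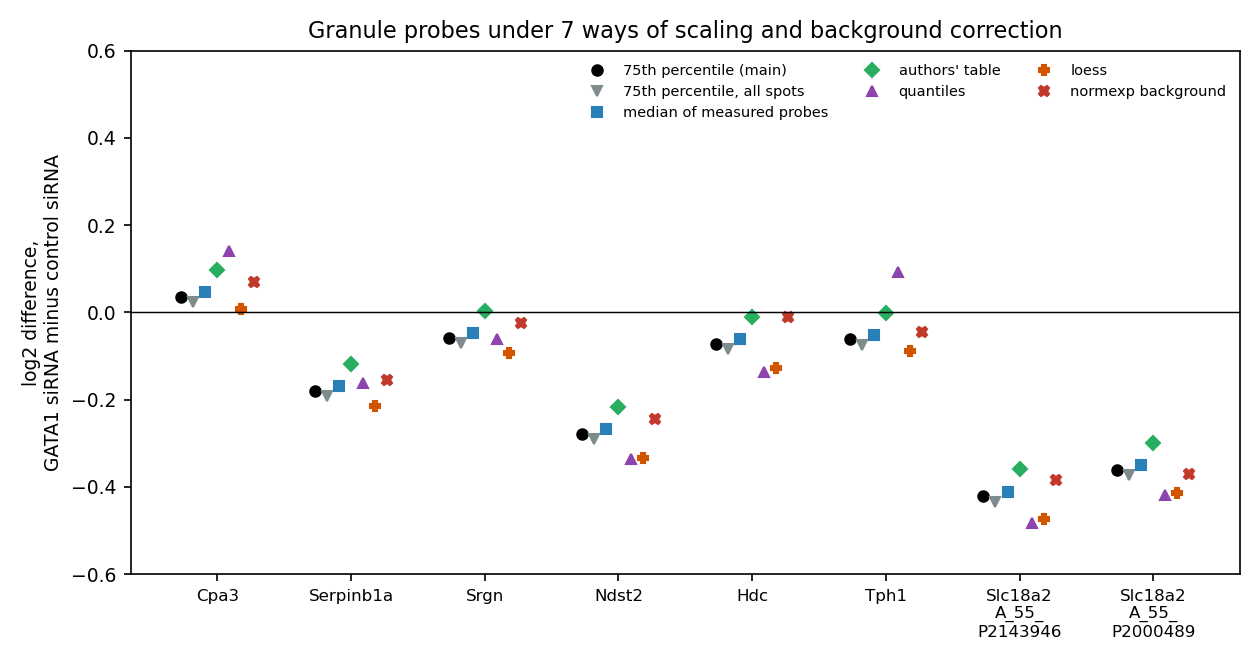
Log2 difference (GATA1 siRNA minus control siRNA) of the 8 probes under the scaling used here (black) and 6 other ways of scaling or background correction. Slc18a2, Ndst2 and Serpinb1a lie below 0 and Cpa3 above 0 under all of them, Hdc lies below 0 by as little as 0.01, Srgn crosses 0 with the authors' table, and Tph1 crosses 0 with quantiles.

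The arrays allow a check of spot-to-spot spread. Of the measured probes, 245 were printed 10 times, and the median SD of the difference between spots of a probe was 0.06. It was 0.03 for the 48 of them as bright as the granule genes, with a highest value of 0.08. Each of the 8 granule probes was printed once. For 5593 genes with several probes, those of a gene differed by an SD of 0.10 in the median. The scanner error of 0.20 is larger than each of these, and none of them holds the spread between animals or cultures. A difference within the scanner error can thus exceed the spread between repeated spots.

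The cultures carried most mast cell markers. Of 10 listed, 9 were well above background on both arrays, and Enpp3 was on neither. Of these, 3 were above 0 and 6 below, and their summed level was 1683 with GATA1 siRNA and 1925 with control siRNA. The median was -0.12, and the widest were Tpsb2 (-0.55), Il1rl1 (-0.32) and Fcer1a (-0.17). None of the 9 passed 1.5-fold. Tpsb2 and Cma1 are on the protease list as well, so the 2 lists are not separate.

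Markers of other cell types differed too. Beside the counts that follow, 47.3% of all measured genes lay below 0. Of 16 measured neutrophil markers (19 listed), 14 were above 0, with a median of 0.51. The widest were Itgb2l (1.01, and -0.10 without the filter on dim probes), Ltf (0.79) and Ngp (0.75), while Mmp9 and Retnlg were well above background on neither array and Fcnb on the GATA1 siRNA array only. The summed level was 457 with GATA1 siRNA and 472 with control siRNA, a sum that includes the 2 markers below 0, Ctsg and Csf3r, which were named after their values were seen. Ctsg is also on the protease list. Of 14 measured macrophage and monocyte markers (19 listed), 12 were above 0, with a median of 0.39, led by Ms4a7 (1.09) and Cd68 (1.07), with Cx3cr1 at -0.94. Their summed level was 41.5 with GATA1 siRNA and 28.7 with control siRNA. C1qa and Mertk were well above background on neither array, and C1qc on the GATA1 siRNA array only. Of 7 basophil markers, 6 were above 0, with a median of 0.24, led by Il18rap (0.85), Itga2 (0.45) and Mcpt8 (0.29), which is on the protease list as well. The 6 include Itgam at 0.0015, with its 3 probes between -0.16 and 0.15, and Cd200r3 at 0.07, both named after their values were seen. Itga2 was dim, with signals of 37.8 on the GATA1 siRNA array and 24.6 on the control siRNA array, and stood at 0.09 after normexp. Their summed level was 222 with GATA1 siRNA and 189 with control siRNA.

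Eosinophil markers ran the other way, with 7 of 10 below 0 and a median of -0.33. Epx stood at -0.85, Prg3 at -0.71 and Siglecf at 0.60 (-0.17 without the filter on dim probes), and the summed level was 26.6 with GATA1 siRNA and 35.2 with control siRNA. Of 11 measured megakaryocyte and platelet markers (12 listed), 6 were below 0 and 5 above. Their median was -0.05, and it was positive under 4 of 12 settings. The lowest were Gp1ba (-1.02), Ppbp (-0.74) and Gp9 (-0.57). Ppbp and Gp9 were dim, with signals of 116 and 75.7 on the GATA1 siRNA array and 172 and 100 on the control siRNA array. The highest, named after its value was seen, was Itga2b (0.25). Gp6 was not well above background, and the summed level was 50.1 with GATA1 siRNA and 59.2 with control siRNA. Basophils also hold histamine, platelets carry serotonin and Slc18a2, and myeloid cells other than mast cells make serglycin and Serpinb1a. The part of such cells in the differences of Slc18a2, Ndst2 and Serpinb1a was not tested.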

How the data were processed

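Per the file headers, the authors obtained spot intensity values with Agilent Feature Extraction 10.7.3.1 (1-colour protocol). The deposited processed signal is background-subtracted, and no scaling between arrays is recorded. The authors' table of intensity equals each signal over its array's median (largest relative gap 4.49e-06). Per the labels' protocols, 100 ng of RNA was amplified and labelled with Cy3.

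Control spots and spots the software marked as outliers (133 with GATA1 siRNA, 117 with control siRNA) were left out, repeated spots were averaged on the log2 scale, and each array was divided by its 75th percentile. A gene is the mean of its measured probes. The GATA1 siRNA array had 30709 probes (55.2%) well above background and the control siRNA array 29335 (52.7%). Each group is 1 array, so sizes of 1.5-fold and 2-fold replace a test. Probes were named through a RefSeq table (GRCm38.p6) by accession (27235) or symbol (3581), and 24865 kept the file's name. Coordinates of probes are mm9, from the array annotation, and whether a probe lies in a coding exon or an untranslated region was not determined here.

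Named genes are all members, Gata1, Gata2, the 3 widest of each list and every listed gene past 2-fold. The members and lists were chosen with earlier results of these data known. A spot counts as lying in an area of differing spots where at least 2 of its 8 nearest spots differed 4-fold or more between arrays. Alternatives were normexp (offset 50, limma 3.58.1, R 4.3.3), scaling by the median of measured probes, quantiles, loess (span 0.4), the authors' table or a percentile over all spots, other filters on dim probes, outlier spots and spots in such areas, and the brightest probe of a gene. Differences were computed in Python 3.11.15 (numpy 2.4.6, pandas 2.3.3), and the steps were tested on simulated data. Some listed genes are not reported here by name.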

Additional observations from a re-analysis of the deposited data

How the results depend on the processing

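No paired analysis was possible because each group is 1 array and no difference comes from a test. Under the alternatives tried, none of 79 values of the 8 granule probes moved by more than the scanner error of 0.20. Most of these values could not have done so. The other filters on dim probes left them unchanged. The authors' table (a shift of 0.06), the median of measured probes, the percentile over all spots, and keeping outliers or leaving out areas shifted all probes alike. Only normexp, quantiles and loess could move a probe apart from the others. Srgn was positive (0.0027) with the authors' table and Tph1 (0.09) with quantiles. The median of the granule genes stayed below 0, and was -0.12 over 6 genes when spots in areas of differing spots, and with them Hdc, were left out. Of 143 list medians, 132 moved by no more than 0.10, the usual SD among probes of 1 gene, and 16 had the other sign. Without a filter on dim probes, which moved the median of all genes by -0.10, the medians were -0.37 (granule proteases), -0.10 (heparin), 0.51 (macrophage), -0.21 (platelet) and -0.26 (clade B serpins). With a stricter filter they were 0.18 (carboxypeptidases), -0.12 (granule proteases) and 0.12 (clade B serpins). With normexp they were 0.13 (basophil), -0.18 (eosinophil) and 0.27 (macrophage). The cause was not tested. The number of genes used was 35010 without the filter and 11604 with the stricter one, and with normexp it stayed at 20524. Probes at least 2-fold apart numbered 97 higher and 176 lower with GATA1 siRNA. The counts were 551 and 918 at 1.5-fold, 22 and 47 at 3-fold, 1492 and 2375 with no filter, 27 and 44 with normexp and 13 and 24 with the stricter filter. With the authors' table they were 122 and 146. Each group is 1 array, and dim signals limit the values of genes such as Hpse, Itga2 and Serpinb6b.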
